A study of Mus musculus with 12 samples.

Results

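The Peg3 domain is a cluster of imprinted genes on proximal mouse chromosome 7. Its listed genes were Peg3, Usp29, Zim1, Zfp264 and Clcn4-2, and they were found in the deposited tables by gene symbol. Of these 5 genes 4 had a row among the 37991 genes of the tables, and Zfp264 matched no row and was not analysed here. The list had been selected on a measured quantity, how far maternal and paternal alleles differ in hybrid mice, so the values of that ratio are given below as a description with no test. The tests concern other contrasts, namely strain differences of the same parental allele, library totals and the comparison of hybrids with their parent strains.

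Expression was measured by paired-end mRNA-seq of adult retina in 12 libraries, with 3 libraries in each of 4 groups. F0 C57BL/6J and F0 Cast/EiJ were the inbred parents, the standard laboratory strain and a strain derived from wild mice. F1 B6xCast had a C57BL/6J father and a Cast/EiJ mother, and F1 CastxB6 had a Cast/EiJ father and a C57BL/6J mother. All mice were males aged 8 weeks, untreated as far as the labels say, and each library came from a pool of retinas, so variation between animals within a pool was not measured. The maternal allele was therefore the Cast/EiJ allele in F1 B6xCast and the C57BL/6J allele in F1 CastxB6.

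In an imprinted gene the allele inherited from the mother or from the father is silent because of marks laid down in the germ line. In this domain the mark is DNA methylation of the maternal allele around the start of Peg3, and Peg3 and Usp29 are known as paternally expressed genes of embryo and brain. Peg3 encodes a large zinc finger protein, Usp29 a ubiquitin-specific protease, Zim1 a zinc finger protein known for maternal expression in embryos, and Clcn4-2 a chloride and proton exchanger of endosomes. The first intron of Peg3 is known for a row of binding sites of the transcription factor YY1, which is itself linked to the imprint.

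Peg3 (ENSMUSG00000002265) lies on the minus strand of chromosome 7 of NCBI37, from 6656603 to 6683132. Zim1 (ENSMUSG00000002266) lies 7.4 kb from Peg3 on the side of the chromosome start, from 6628154 to 6649161, also on the minus strand. Usp29 (ENSMUSG00000051527) is on the plus strand, and its row in the tables covers 2610 bases from 6913871 to 6916480, 230.7 kb beyond Peg3. Clcn4-2 (ENSMUSG00000000605) is the most distant, 551.9 kb beyond Peg3 on the minus strand, from 7235027 to 7252222.

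The sequences around the starts of these genes are shown because the 2 genes with paternal expression share theirs. RefSeq gave a promoter window for 4 of the members on build GRCm38.p6, each with 250 bases before and 50 after the transcription start. The Peg3 window, on the minus strand of chr7:6730370-6730669, and the Usp29 window, on the plus strand of chr7:6730333-6730632, shared 263 bases on opposite strands, and their RefSeq starts were 164 bases apart. The RefSeq start of Usp29 was 230.6 kb from the row that the tables give for this gene. Zim1 (minus strand, chr7:6696383-6696682) and Clcn4-2 (minus strand, chr7:7299508-7299807, listed by RefSeq as Clcn4 with Clcn4-2 as its synonym) had separate windows. In the 3 windows printed here 5′ to 3′, capitals mark each CpG, the dinucleotide at which DNA is methylated.

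Peg3: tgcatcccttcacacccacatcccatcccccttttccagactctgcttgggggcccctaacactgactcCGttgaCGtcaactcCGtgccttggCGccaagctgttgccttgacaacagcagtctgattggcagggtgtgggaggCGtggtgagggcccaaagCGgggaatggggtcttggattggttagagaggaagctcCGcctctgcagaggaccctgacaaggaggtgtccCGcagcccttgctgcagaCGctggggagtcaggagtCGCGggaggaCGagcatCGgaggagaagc

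Zim1: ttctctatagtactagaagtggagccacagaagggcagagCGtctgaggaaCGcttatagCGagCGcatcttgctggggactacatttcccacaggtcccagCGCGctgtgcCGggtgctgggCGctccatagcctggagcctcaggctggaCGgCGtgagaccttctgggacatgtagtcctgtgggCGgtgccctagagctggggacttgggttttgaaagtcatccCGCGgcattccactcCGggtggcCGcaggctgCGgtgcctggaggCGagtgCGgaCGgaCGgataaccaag

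Clcn4-2: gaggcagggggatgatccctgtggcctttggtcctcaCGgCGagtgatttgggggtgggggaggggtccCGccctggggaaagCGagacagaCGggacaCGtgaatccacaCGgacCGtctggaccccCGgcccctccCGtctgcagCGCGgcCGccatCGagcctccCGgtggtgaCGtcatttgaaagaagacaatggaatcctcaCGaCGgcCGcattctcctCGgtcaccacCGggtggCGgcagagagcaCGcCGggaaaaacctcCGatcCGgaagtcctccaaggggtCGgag

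The Peg3 window held 13 CpGs, the Usp29 window 17, the Zim1 window 20 and the Clcn4-2 window 27, against a median of 7 over 32851 RefSeq promoters. Of these promoters 63.7% held as many CpGs as Peg3 or fewer, and the share was 70.3% for Usp29, 75.2% for Zim1 and 85.8% for Clcn4-2. None of these 4 windows held the YY1-type motif GCCATNTT on either strand, which 6.05% of the promoters did. The window of Peg3 matched NCBI37 exactly at 1 place, chr7:6683081-6683380, at the annotated start of the gene.

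The motif stood instead in the first intron of Peg3. In the first 4 kb of the gene on NCBI37, GCCATNTT occurred 12 times, each time on the strand of the gene, and all 12 matches lay in the first intron (chr7:6679286-6682968). The first 4 kb of Zim1, Usp29 and Clcn4-2, counted from the ends of their rows in the tables, held 0 matches. Of 34960 autosomal genes with such a window, 53.3% held at least 1 match on either strand, the median was 1, and 17 genes held 12 or more. The others with 12 or more were Mest, another paternally expressed imprinted gene, with 17, the vomeronasal receptor gene Vmn1r48 with 12, and 14 predicted genes on chromosome 9 with names starting in Gm. The stretch of 300 bases printed next, from the minus strand of chr7:6680954-6681253 on NCBI37, holds 3 of the matches, which are in capitals. A match describes the sequence only, and binding was not measured in these libraries.

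Peg3 intron: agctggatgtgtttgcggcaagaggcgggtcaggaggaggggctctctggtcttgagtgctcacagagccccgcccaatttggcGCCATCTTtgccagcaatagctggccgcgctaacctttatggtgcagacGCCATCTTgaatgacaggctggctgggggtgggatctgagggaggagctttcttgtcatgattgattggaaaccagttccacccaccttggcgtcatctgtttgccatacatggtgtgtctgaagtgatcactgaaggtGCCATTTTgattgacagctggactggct

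**Figure D1:**
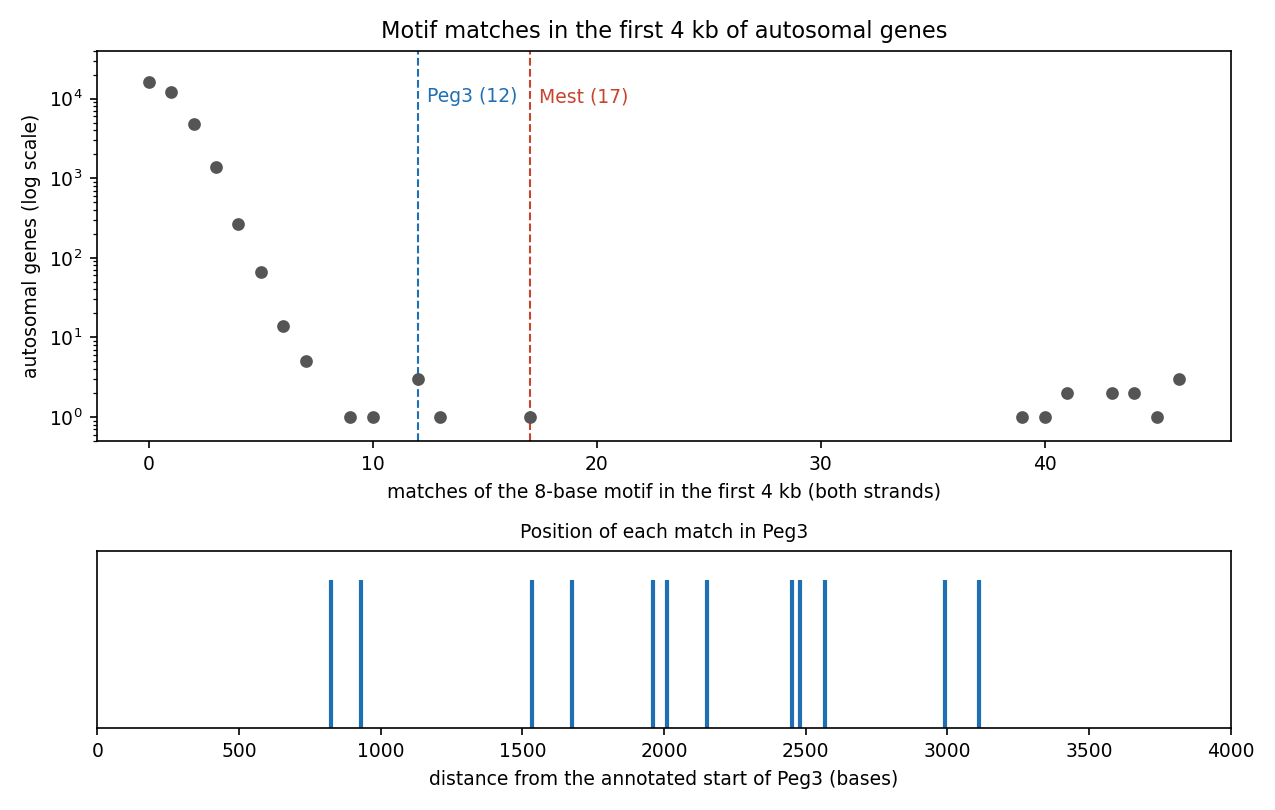
The upper panel plots how many autosomal genes (log scale) held each number of motif matches in their first 4 kb, and the lower panel marks the distance of each match from the annotated start of Peg3 in bases. Peg3 with 12 matches and Mest with 17 stand beyond the bulk of genes, and the 12 matches of Peg3 lie between 825 and 3113 bases from its start.

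Unique hits are read pairs assigned to 1 gene only, and in F1 to 1 of its alleles. They totalled between 8158534 and 12363291 per library. Abundance is given as count equivalents, which the authors estimated with MMSEQ and normalised across libraries. Each allele of an F1 library was scaled to the total of a whole F0 library, so an allele with the same share as in F0 has the same value, and the F1 total is given as the mean of both alleles. Levels between genes are compared in FPKM, the exponential of the deposited log expression. Rod markers led the tissue check, with 8 genes summing to 16505 to 18398 FPKM per library. The 6 markers of lens summed to 0.415 to 12.0 FPKM and the 6 of retinal pigment epithelium to 82.6 to 111 FPKM, of which Rlbp1, also made by Mueller glia, held most, while Rpe65 averaged 0.203 to 0.579 FPKM per group.

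Peg3 was the most abundant of the 4 genes, at 40.6 ± 6.15 FPKM (SD, n = 12), a level above that of 96.7% of autosomal genes. Clcn4-2 followed at 24.3 ± 1.24 FPKM, Usp29 at 3.86 ± 0.375 FPKM and Zim1 at 0.456 ± 0.233 FPKM (SD, n = 12 each). The ranges of these levels over the 12 libraries did not overlap between neighbours in this order. The lowest Peg3 level was 31.4 FPKM and the highest of Clcn4-2 was 26.1 FPKM, and the highest Zim1 level was 0.942 FPKM against a lowest Usp29 level of 3.30 FPKM.

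Peg3 was read almost entirely from the paternal allele in every F1 library. In F1 B6xCast, replicates 1 to 3 had 11200, 9820 and 10400 count equivalents on the paternal C57BL/6J allele, against 12.8, 18.8 and 18.1 on the maternal Cast/EiJ allele. In F1 CastxB6 the paternal allele was that of Cast/EiJ, with 9500, 10300 and 10500, and the maternal C57BL/6J allele had 0.41, 8.19 and 5.85. The expressed allele thus changed strain with the father, and the paternal and maternal ranges were far apart in both crosses. Unique hits counted 28461 paternal and 16 maternal read pairs, a maternal share of 0.0562% (exact Clopper-Pearson 95% interval 0.0321 to 0.0912, counting error only). Averaged over the libraries the share was 0.0555% ± 0.0336 (SD, n = 6) from unique hits and 0.103% from count equivalents.

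The maternal share of Peg3 was no higher than the share of hits on the wrong strain. In these males the X chromosome comes from the mother, so hits of X-linked genes on the father's strain measure wrong assignments, and they made up 0.468 to 0.637% of X-linked hits per library. Among 207 X-linked genes with at least 1000 hits the median share was 0.0973%, and 69 of them had a lower share than the maternal share of Peg3. The maternal hits were 4, 5 and 3 in F1 B6xCast and 0, 2 and 2 in F1 CastxB6. For the library without a maternal hit, F1 CastxB6 replicate 1, the 4825 paternal hits allow a share of up to 0.0622%.

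Usp29 had the same pattern at a lower level. The paternal allele had 328, 380 and 339 count equivalents in F1 B6xCast and 383, 384 and 375 in F1 CastxB6. No library had more than 1.85 on the maternal allele. Unique hits were 963 paternal and 3 maternal, a maternal share of 0.311% (exact 95% interval 0.0641 to 0.905). The maternal hit counts were 0, 1 and 1 in F1 B6xCast and 1, 0 and 0 in F1 CastxB6, and the libraries at 0 allow shares of up to 2.07%, 1.78% and 1.79%.

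Zim1 had no maternal excess common to both crosses. Its allele with the higher mean was that of C57BL/6J whichever parent gave it. In F1 B6xCast the paternal C57BL/6J allele had 48.8, 43.5 and 52.2 count equivalents and the maternal Cast/EiJ allele 20.1, 10.4 and 11.2. In F1 CastxB6 the maternal C57BL/6J allele had 26.8, 25.4 and 19.5 and the paternal Cast/EiJ allele 8.55, 21.5 and 19.8. The alleles were far apart in every F1 B6xCast library and in replicate 1 of F1 CastxB6, and close in the other F1 CastxB6 libraries. The maternal share of unique hits was 20.9% (exact 95% interval 14.3 to 29.0, 27 of 129 hits) in F1 B6xCast and 60.9% (50.1 to 70.9, 56 of 92 hits) in F1 CastxB6.

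Within a strain, neither allele of Zim1 had a higher mean when it came from the mother. The C57BL/6J allele had 48.2 ± 4.38 count equivalents as the paternal and 23.9 ± 3.87 as the maternal allele (SD, n = 3 each), without overlap. The Cast/EiJ allele had 16.6 ± 7.04 as the paternal and 13.9 ± 5.38 as the maternal allele, and these overlapped. The gene is thinly covered, with 221 allele-specific hits over all 6 F1 libraries.

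Clcn4-2 was expressed from both alleles with a small paternal excess. Its paternal allele had 2160, 2270 and 2260 count equivalents in F1 B6xCast and 2290, 2090 and 2240 in F1 CastxB6. The maternal allele had 1620, 1810 and 1910 in F1 B6xCast and 1940, 2040 and 1850 in F1 CastxB6. The paternal allele was higher in 6 of 6 libraries by count equivalents, with no overlap between the 6 paternal and the 6 maternal values, and in 5 of 6 by unique hits. The maternal share of unique hits was 43.0% (exact 95% interval 40.6 to 45.5) in F1 B6xCast and 48.3% (45.8 to 50.8) in F1 CastxB6, and 45.7% (43.9 to 47.4) over both. For the C57BL/6J allele the paternal mean was 1.15 times the maternal mean, and for the Cast/EiJ allele it was 1.24 times.

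Across the 13414 autosomal genes with enough allele-specific hits, 35 genes, 0.261%, had paternal values above all maternal values in the 6 F1 libraries, and 0.201% had the opposite. Peg3, Usp29 and Clcn4-2 were among the 35 and Zim1 was in neither set, and since the members were chosen by this contrast nothing is read from that count.

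**Figure D2:**
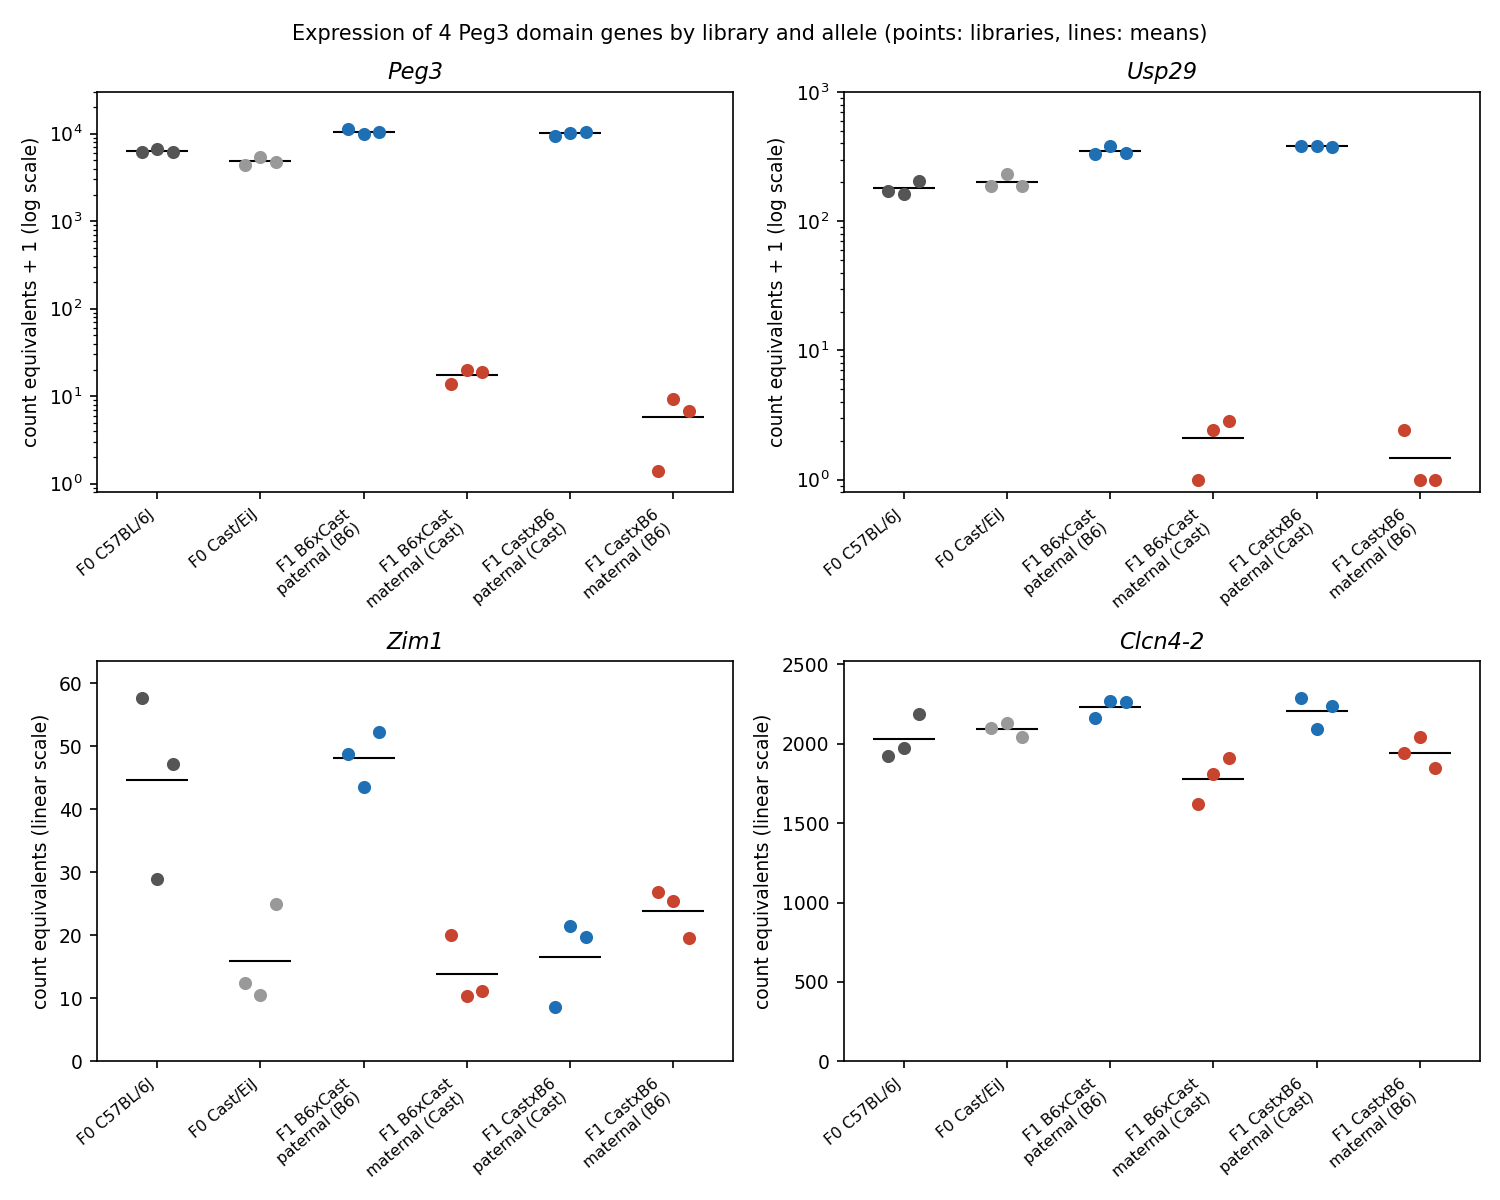
Each panel plots the count equivalents of 1 gene by group and allele, with points for libraries and lines for means, on a log scale of the value plus 1 for Peg3 and Usp29 and a linear scale from 0 for Zim1 and Clcn4-2. The maternal alleles of Peg3 and Usp29 lie far below the paternal ones in both crosses, the C57BL/6J allele of Zim1 is the higher in mean in both, and the alleles of Clcn4-2 are near each other.

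Among the genes within 1 Mb of Peg3 that had at least 100 allele-specific hits, a maternal share under 1% was seen for Peg3 and Usp29 only. The tables list 59 genes there, 4 of them members. Of the other 55 genes, 33 had no allele-specific hit in F1 and 11 had between 1 and 99 hits, and 23 of the 55 are olfactory or vomeronasal receptor genes, none of them above 0.304 FPKM. The 11 with at least 100 hits were Zfp787, Zfp444, Zfp667, Zfp583, Zfp78, Zfp28, ENSMUSG00000093536, Zfp954, Zfp773, Zfp418 and Zfp772, nearly all of them zinc finger genes by name. In F0, 3 of the 11 were called (limma), Zfp444 and Zfp78 higher and Zfp667 lower in Cast/EiJ, against 33.8% of all genes. Between paternal alleles 3 were higher and 2 lower in Cast/EiJ, against 30.3% of all genes, and between maternal alleles 2 were higher and 1 lower, against 29.8%. None was called between the reciprocal crosses, against 0.0401% of all genes, and 1, Zfp667, was higher in F1 than in F0 (log2 difference 0.39, SE 0.075), against 12.2% of all genes. The maternal shares of the 11 genes, averaged over the crosses so that strain differences cancel, lay between 42.6% (Zfp772) and 54.1% (ENSMUSG00000093536) with a median of 48.6%. The corresponding average was 45.7% for Clcn4-2 and 40.9% for Zim1, 0.0557% for Peg3 and 0.319% for Usp29. Between Peg3 and the annotated row of Usp29, which are 230.7 kb apart though the RefSeq starts lie 164 bases apart, no other gene reached 100 hits. The closest genes outside the member list that did were Zfp954, 384 kb beyond Peg3, and ENSMUSG00000093536, 272 kb on the other side.

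**Figure D3:**
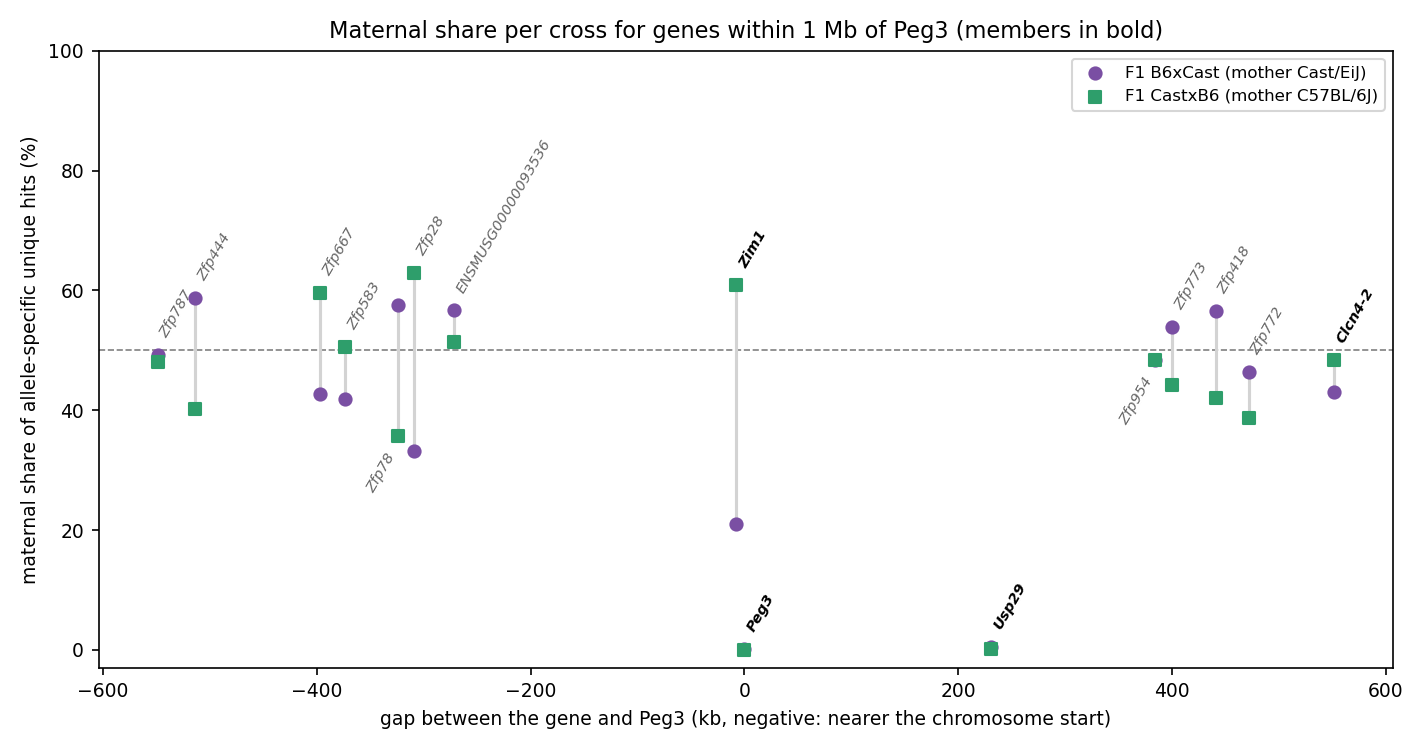
Maternal share of allele-specific unique hits in percent, for each cross, against the gap between a gene and Peg3 in kb, for the genes with at least 100 hits within 1 Mb. Peg3 and Usp29 lie at 0.0286 to 0.445%, while the other genes lie between 20.9 and 62.9%, and lines that connect distant points, as in Zim1 and Zfp28, mark genes with a higher allele of 1 strain.

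Compared with other genes known for paternal expression, Peg3 had little maternal signal. Of a list of 14 such genes, 11 had at least 100 allele-specific hits, and their maternal shares ran from 0.151% (Sgce) to 30.7% (Inpp5f) with a median of 3.0%. Of the 11 genes 8 had a share under 5%. None of the 11 had a share below the 0.0562% of Peg3. Mest, whose first 4 kb hold 17 motif matches, had a share of 22.6%. In F0, 3 of the 13 list members tested were higher in Cast/EiJ and 1 was lower, with a median log2 difference of 0.038, while 33.8% of all genes were called. Between paternal alleles 1 of 11 was called, Igf2, a fetal growth factor, lower in Cast/EiJ, against 30.3% of all genes. Between maternal alleles, the weaker ones in this list, 3 of 11 were higher and 4 lower in Cast/EiJ, against 29.8% of all genes. The filter on hits counted both alleles together, and the called genes had from 2 (Sgce) and 9 (Peg10) to 334 (Impact) maternal hits over the F1 libraries. Nothing is therefore read from this maternal count. None was called between the reciprocal crosses, against 0.0401% of all genes. Between F1 and F0 1 of 13, Nnat, which encodes a small membrane protein, was lower in F1, where 12.2% of all genes were called.

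The genes whose allele values were most like those of Peg3 over the 12 F1 allele values (6 libraries, 2 alleles) were Ndn on chromosome 7 (Pearson r = 0.984), Nap1l5 on chromosome 6 (0.981) and Snrpn on chromosome 7 (0.977), out of 9843 genes ranked. All 3 are paternally expressed imprinted genes, and Usp29 ranked next with r = 0.976. These values fall into a paternal and a maternal cluster, so r describes little more than that separation. For Zim1 the nearest genes were Dhrs1 (0.956), Xpr1 (0.921) and Pkd2 (0.918), each with nearly equal maternal and paternal hits. Points of 1 group or 1 library are not independent, so no p is given for any r.

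Peg3 and Zim1 differed between the parent strains, both with higher expression in C57BL/6J. Peg3 had 6220, 6760 and 6150 count equivalents in F0 C57BL/6J and 4350, 5400 and 4780 in F0 Cast/EiJ. All C57BL/6J libraries were above all Cast/EiJ libraries. The means were 6377 ± 334 and 4843 ± 528 (SD, n = 3 each), a log2 difference of -0.40 (SE 0.088, adjusted p = 0.0082, limma with Benjamini-Hochberg adjustment over 14452 genes). Zim1 had 57.7, 28.9 and 47.2 in F0 C57BL/6J and 12.4, 10.6 and 24.9 in F0 Cast/EiJ, again without overlap. Its log2 difference was -1.46 (SE 0.38, adjusted p = 0.016, limma), and the call was lost when C57BL/6J replicate 1 (-1.25, adjusted p = 0.0502), C57BL/6J replicate 3 (-1.40, adjusted p = 0.056) or Cast/EiJ replicate 2 (-1.24, adjusted p = 0.059) was left out. Without the filter on low values neither gene was called (adjusted p = 0.087 for Peg3 and 0.14 for Zim1, limma). Of the 4 genes 2 were called, and over all genes tested 33.8% were.

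Usp29 and Clcn4-2 did not pass this test. Usp29 had 171, 162 and 203 count equivalents in F0 C57BL/6J and 187, 230 and 187 in F0 Cast/EiJ, which overlapped (log2 difference 0.17, SE 0.14, adjusted p = 0.37, limma). Clcn4-2 had 1920, 1970 and 2190 against 2100, 2130 and 2040 (log2 difference 0.047, SE 0.071, adjusted p = 0.65, limma). In whole retina, fewer cells of a type and less RNA per cell cannot be told apart. Blood markers differed in the same comparison, 3 of 4 tested being lower in Cast/EiJ, with summed levels of the 6 listed markers of 76.0 to 115 FPKM in F0 C57BL/6J and 35.5 to 58.0 FPKM in F0 Cast/EiJ. The other tested marker, Hba-a1, pointed the other way without a call (0.52, adjusted p = 0.051, limma). Hbb-b2 differed by -5.04 in F0, but its Cast/EiJ allele was the higher in F1 (1.13 between paternal and 1.31 between maternal alleles). These levels were therefore not taken as the amount of blood. Of the pigment epithelium markers 2 of 5 were lower, Ttr (log2 difference -1.77) and Rgr (-1.52). Their sums overlapped but were mostly Rlbp1, and 0 of 3 lens markers were called. Of 8 rod markers 2 were higher in Cast/EiJ, and their sum was 16505 to 16751 FPKM in F0 C57BL/6J and 17589 to 18398 FPKM in F0 Cast/EiJ, without overlap. Their part in the Peg3 and Zim1 differences was not tested.

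When the paternal alleles of both strains were compared within the hybrids, Zim1 passed the test and Peg3 did not. The paternal allele of Peg3 had 10473 ± 693 count equivalents when it was of C57BL/6J and 10100 ± 529 (SD, n = 3 each) when it was of Cast/EiJ, and the libraries overlapped. The log2 difference was -0.052 (SE 0.43, adjusted p = 0.95, limma). This SE comes from a model in which both alleles share 1 estimate of the spread, and near-silent maternal alleles vary widely on the log scale. A fit with 1 allele per F1 library, chosen after seeing the data, gave the same difference with an SE of 0.081 (adjusted p = 0.68, limma). For Usp29 that fit gave 0.13 (SE 0.11, adjusted p = 0.44, limma), from 349 ± 27.4 on the C57BL/6J and 381 ± 4.93 on the Cast/EiJ paternal allele.

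The paternal allele of Zim1 was lower by 1.57 on the log2 scale when it was of Cast/EiJ (log2 difference -1.57, SE 0.37, adjusted p = 0.0041, limma), with 16.6 ± 7.04 against 48.2 ± 4.38 count equivalents and no overlap. Of the 4 genes 1 was called in this contrast, in which 30.3% of 13414 genes were called. For the maternal alleles of Zim1 the log2 difference had the same sign, -0.79 (SE 0.37, adjusted p = 0.13, limma), and did not pass. Clcn4-2 differed by -0.016 (SE 0.067, adjusted p = 0.89, limma) between paternal and by -0.13 (SE 0.067, adjusted p = 0.16) between maternal alleles. The maternal allele of Peg3 was called (log2 difference 1.96, SE 0.43, adjusted p = 0.0023, limma), higher as the Cast/EiJ allele, from 12 against 4 unique hits. On those hits edgeR (adjusted p = 0.072) and DESeq2 (adjusted p = 0.12) did not call it. Without F1 CastxB6 replicate 1, which had no maternal hit, the difference was 1.13. Peg3 passed the filter on hits through its paternal allele, so nothing is read from the call on its near-silent maternal allele. The maternal alleles of Usp29 were at or below 3 count equivalents in all libraries, so no fold is given. In the maternal contrast 1 of the 4 genes and 29.8% of all genes were called.

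The F0 strain difference was then set against that of the expressed allele in F1. For Peg3 the F0 difference minus the paternal difference was -0.35, with an SE of 0.61 in the joint model and of 0.11 in the fit with 1 allele per F1 library. The latter had an unadjusted p of 0.0096 and an adjusted p of 0.080 (limma), so it missed the threshold. For Zim1 the same quantity was 0.11 (SE 0.53, adjusted p = 0.92), for Usp29 0.043 (SE 0.49, adjusted p = 0.97) and for Clcn4-2 0.062 (SE 0.095, adjusted p = 0.73). None of the 4 genes was called, and none had an unadjusted p under 0.05 in the joint model, where 10.4% of all genes were called. Against the maternal alleles the quantity was -0.68 (SE 0.53, adjusted p = 0.50, limma) for Zim1 and 0.18 (SE 0.095, adjusted p = 0.30) for Clcn4-2. There 1 of the 4 genes, Peg3, was called (-2.36, SE 0.61, adjusted p = 0.023, limma), with 8.45% of all genes. Peg3 was not called in the fit with 1 allele per F1 library (adjusted p = 0.063, limma). This value too rests on the 16 maternal hits of a gene that passed the filter through its paternal allele, so nothing is read from it.

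**Figure D4:**
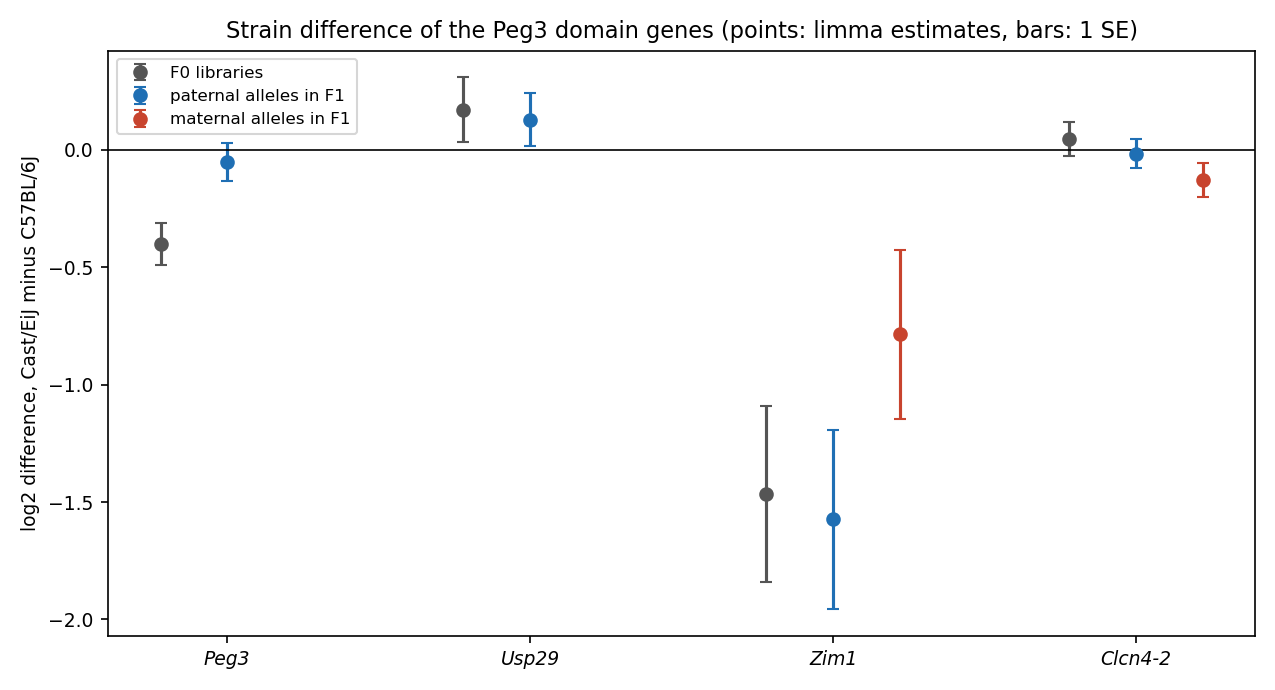
Log2 difference of Cast/EiJ minus C57BL/6J with 1 SE for the F0 libraries, the paternal alleles and the maternal alleles, the allele values being from the fit with 1 allele per F1 library. The near-silent maternal alleles of Peg3 and Usp29 are left out. Zim1 lies below 0 in all 3 comparisons, Peg3 lies at -0.40 in F0 and near 0 for the paternal alleles, and Clcn4-2 and Usp29 lie within 0.2 of 0.

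The total level of none of the 4 genes passed the test between the reciprocal crosses. The allele means of Peg3 were 5606, 4919 and 5209 count equivalents in F1 B6xCast and 4750, 5154 and 5253 in F1 CastxB6, and the groups overlapped (log2 difference of F1 B6xCast minus F1 CastxB6 0.053, SE 0.064, adjusted p = 0.92, limma). For Usp29 the means were 164, 191 and 170 against 192, 192 and 188 (log2 difference -0.13, SE 0.077, adjusted p = 0.92, limma). Zim1 had 34.5, 27.0 and 31.7 in F1 B6xCast, where C57BL/6J gave the paternal allele, and 17.7, 23.5 and 19.7 in F1 CastxB6. These did not overlap, and the log2 difference of 0.61 (SE 0.17) had an unadjusted p of 0.0084 and an adjusted p of 0.92. Clcn4-2 differed by -0.051 (SE 0.050, adjusted p = 0.92). None of the 4 genes was called and 1 had an unadjusted p under 0.05, and 6 of 14967 genes, 0.0401%, were called in all. EdgeR and DESeq2 on unique hits called none of the 4 either, with 2 each, Zim1 and Peg3, at an unadjusted p under 0.05.

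Hybrid totals lay between or near the parental levels. The 6 F1 totals of Peg3 averaged 5149 ± 295 count equivalents (SD, n = 6), between the means of the 2 parent strains. The log2 difference of the F1 mean from the F0 mean was -0.11 (SE 0.057, adjusted p = 0.27, limma) for Peg3, -0.049 (SE 0.079) for Usp29, -0.026 (SE 0.22) for Zim1 and -0.012 (SE 0.040) for Clcn4-2, and the adjusted p of the latter 3 was at least 0.76. None of the 4 was called or had an unadjusted p under 0.05, while 12.2% of 14710 genes were called. The F1 libraries had a second sequencing lane and were mapped to a hybrid transcriptome, which cannot be told apart from the cross in this comparison.

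Because each allele column was scaled like a whole library, a gene read equally from both alleles has in each a value near its F0 value, and a gene read from 1 allele has in that allele about 2 times its F0 value. The paternal allele of Usp29 had 1.95 times the F0 value of C57BL/6J and 1.89 times that of Cast/EiJ. For Peg3 these ratios were 1.64 and 2.09, and for Clcn4-2, read from both alleles, they were 1.1 and 1.06. Zim1 resembled Clcn4-2 in these paternal ratios, with 1.08 and 1.04. On the maternal side it did not for C57BL/6J, where Zim1 had 23.9 count equivalents against 44.6 in F0, and Clcn4-2 had 1943 against 2027. The maternal Cast/EiJ allele had 13.9 against 16.0 in F0 for Zim1 and 1780 against 2090 for Clcn4-2.

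Among 10 factors that set or keep imprints, 9 were tested in F0, and 4 were higher in Cast/EiJ. These were Trim28, the corepressor that is recruited to imprints (log2 difference 0.47, SE 0.072, adjusted p = 0.0014, limma), Zfp445, a zinc finger protein that binds imprints (0.44, SE 0.074), Yy1 (0.31, SE 0.081) and Ctcf, an insulator protein (0.21, SE 0.066). The median log2 difference of the 9 was 0.10, beside 0.03 over all genes tested, and the background share of calls was 33.8%. None of the 9 was called between the paternal alleles (30.3% of all genes), between the reciprocal crosses (0.0401%) or between F1 and F0 (12.2%). Between the maternal alleles 1, the DNA methyltransferase gene Dnmt3a, was lower in Cast/EiJ, against 29.8% of all genes called. Of the partners and relatives of the member proteins, Siah1a and Traf2, which act with Peg3 in cell death, and Clcn3, an exchanger related to Clcn4-2, 0 of 3 were called in F0. Between the alleles of Cast/EiJ and C57BL/6J, Clcn3 was higher on both the paternal (0.21) and the maternal (0.27) side, and Traf2 was lower on the maternal side (-0.36). These were 1 of 3 paternal and 2 of 3 maternal contrasts, against 30.3% and 29.8% of all genes called. The X-linked Siah1b and Clcn5 were not tested.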

How the data were processed

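Retinal mRNA of 12 libraries was analysed. Per the labels and methods, the authors trimmed reads with Trim Galore 0.2.6 and mapped them with Bowtie 0.12.9 to Ensembl transcriptomes on mm9 (NCBI37), strain-specific for F0 and hybrid for F1. The authors estimated with MMSEQ the deposited count equivalents (a normalised signal that is not whole) and the natural log of expression. The unique hits are a raw count deposited by the authors. Libraries were not strand-specific, so a gene and an antisense transcript cannot be told apart, and shared reads were divided by model. The deposited posterior SD values and the authors' own comparison table (model probabilities and Bayes factors) were not used, so that 54 columns of per-sample values were left out.

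Log2 of count equivalents plus 1 was tested with limma 3.58.1 (trend) in R 4.3.3, with Benjamini-Hochberg adjustment over all genes and calls at 0.05. F0, reciprocal totals and F1 against F0 used autosomal genes with at least 10 in at least 3 libraries. Allele contrasts used 1 model of F0 strains and both alleles, blocked on F1 library (correlation 0.135 by consensus), for genes averaging 10 or more allele-specific hits per F1 library. The design named the library total for F1, and the mean of both alleles was used because each allele column was scaled like a library. Alternatives were edgeR 4.0.16 and DESeq2 1.42.0 on unique hits, other filters, pseudocounts and scalings, a replicate block and left-out libraries. Fits were tested on simulated data.

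Depth limits shares to exact Clopper-Pearson 95% intervals, and a count of 0 allows up to 3 counts, both for counting error only. Members and lists were chosen with earlier results of these data known. Besides members, the rule names genes within 1 Mb with at least 100 allele-specific hits, the 3 nearest genes by correlation among genes averaging 100 or more count equivalents, and the lists. The genes nearest to Peg3 by library total are not reported here. Mest, Vmn1r48 and the predicted genes of the motif count were named after their values were seen. Sequences are from RefSeq (GRCm38.p6) and NCBI37.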

Additional observations from a re-analysis of the deposited data

Results flagged for a closer look

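The parental shares of Zim1 pointed in opposite directions in the 2 crosses. In all 3 F1 B6xCast libraries the paternal allele had more unique hits, with a maternal share of 20.9% (27 of 129 hits), and in all 3 F1 CastxB6 libraries the maternal allele had more, with a maternal share of 60.9% (56 of 92 hits). The higher allele was that of C57BL/6J in both. This difference between the crosses was not tested, since the members were chosen by the maternal to paternal ratio. By count equivalents replicate 3 of F1 CastxB6 had 19.5 for the maternal against 19.8 for the paternal allele, so the opposite direction held there in 2 of 3 libraries.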

How the results depend on the processing

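Of 485 alternative values, 455 kept their direction and side of the threshold or, where there was no test, stayed near the reported value, 7 lost a call, 6 moved and 17 changed sign. With no filter on low values, the F0 calls over all genes fell from 4887 to 3161, and Zim1 (-1.46, adjusted p = 0.14, limma) and Peg3 (-0.40, adjusted p = 0.087, limma) lost their F0 calls, in a fit over more genes, while the reciprocal totals gave 24 calls, against 12 with DESeq2 on unique hits. On unique hits the maternal Peg3 difference lost its call, at 1.63 with edgeR and 1.73 with DESeq2, and the reciprocal difference of Clcn4-2, not called in any fit, changed sign to 0.10 with both. The mean maternal share of Peg3, 0.0555% from unique hits, was 0.103% from count equivalents and 0.114% from FPKM. The cause of these changes was not tested.

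Leaving out 1 library gave -1.82 to -1.24 for Zim1 in F0 and 5 to 12 reciprocal calls, the 12 without F1 B6xCast replicate 1. Signs of values that were not called changed for the paternal difference of Clcn4-2 (-0.043 to 0.023), for F1 minus F0 in Zim1 (-0.16 to 0.15), Usp29 (-0.082 to 0.00073) and Clcn4-2 (-0.031 to 0.016), and for F0 minus paternal in Zim1 (-0.28 to 0.34) and Usp29 (-0.056 to 0.14). Same-numbered libraries correlated in their deviations from the group means at -0.11 to 0.30 (median 0.03, 6 of 18 pairs over 0.1). Libraries of other numbers correlated at -0.24 to 0.16 (median 0.004, 2 of 36 pairs over 0.1). Replicates 1 of F0 C57BL/6J, F0 Cast/EiJ and F1 B6xCast correlated at 0.28 to 0.30, and that of F1 CastxB6 at -0.11 to -0.07 with them. Whether the numbers pair the libraries was not tested. A replicate block gave 6376 F0 calls, an adjusted p of 0.0054 for Zim1 and 0.00055 for Peg3 in F0 (limma), and changed no call of a member among the values compared. The maternal contrasts of Usp29 and the F0 minus maternal difference of Peg3 were not among them. Zim1 with 221 and the maternal alleles of Peg3 and Usp29 with 16 and 3 hits are limited by depth.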
